A study of Mus musculus with 6 samples.

Results

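The mRNAs of the NF-κB transcription factors and of the proteins that hold them in check were examined in astrocytes isolated from the brains of mice that had received quinpirole or a mock treatment. The group comprised 10 genes, chosen by name but with earlier results of these data known: the 5 subunit genes *Rela*, *Nfkb1*, *Nfkb2*, *Relb* and *Rel*, the inhibitor genes *Nfkbia*, *Nfkbib*, *Nfkbiz* and *Tnfaip3*, and the kinase gene *Ikbkb*. All 10 had a row among the 17193 Ensembl gene identifiers measured. The mice were wild-type C57BL/6 animals aged 3 months, and the groups held 3 libraries each, called mock 1 to 3 and quinpirole 1 to 3. Quinpirole is an agonist of the dopamine D2 receptor (DRD2), and the dose and duration given to the sequenced mice are not given in the sources used here. Astrocytes were captured from digested adult brain with magnetic beads against the surface antigen ACSA-2, and poly-A RNA was sequenced. Whether a library came from 1 mouse or from several is not stated, so p-values measure the spread between these libraries.

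NF-κB is a family of dimeric transcription factors that in resting cells are kept in the cytoplasm by inhibitor proteins called IκB. In the classical branch, inflammatory receptors activate a kinase complex that contains the product of *Ikbkb*, IκB is phosphorylated and destroyed, and dimers of RelA with the product of *Nfkb1* enter the nucleus. In the alternative branch, the precursor encoded by *Nfkb2* is shortened and acts with RelB. Several of the inhibitors and subunits are themselves encoded by NF-κB target genes, and this feedback ends the response. In astrocytes the pathway is known for driving cytokine, adhesion molecule and complement genes during neuroinflammation.

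The labelled cell type was checked against marker genes. All 10 astrocyte markers were detected, with *Gfap* at 528 ± 36.1 FPKM (SD, n = 3) in the mock group, although the glutamate transporter gene *Slc1a2* was low (8.10 ± 0.562 FPKM). Their summed level was 1489 to 1650 FPKM after mock and 1478 to 1508 FPKM after quinpirole. At the threshold used below, 2 of the 10 passed as lower, *Slc1a2* and *Atp1b2*, the gene of the ACSA-2 antigen. Of all tested genes, 10.9% passed in either direction and 5.18% passed as lower (limma). FPKM is a fragment count divided by transcript length and library depth, and so a level per length. The preparations also held transcripts of other cells: the 10 microglial markers summed to between 691 and 728 FPKM in the mock libraries and to between 729 and 794 FPKM after quinpirole, and none of the 10 was at 0. Every quinpirole library lay above every mock library for *Aif1* and *C1qa*, and below for *Csf1r*, *Itgam*, *Ptprc* and *Cx3cr1*, and none of these 6 genes passed the threshold used below (limma, all 6 at an unadjusted p under 0.05). Among all tested genes the groups were apart in either direction for 36.9%, and 31.3% had an unadjusted p under 0.05 from limma. Of 6 pericyte and smooth-muscle markers, *Acta2* (2590 ± 88.9 FPKM in the mock group) and *Tagln* were abundant and higher in every quinpirole library than in any mock library without passing the threshold. *Pdgfrb* passed as lower (log2 difference -0.30, adjusted p = 0.0227 from limma), and *Myh11*, *Rgs5* and *Kcnj8* averaged under 1 FPKM. Likewise, a mean under 1 FPKM was found for 5 of 6 neuronal, 4 of 7 oligodendrocyte-lineage, 4 of 7 endothelial and 2 of 5 ependymal markers. Other markers of these lists were well detected. The ependymal marker *Foxj1* averaged 125 FPKM after mock and 122 FPKM after quinpirole, and the endothelial marker *Slco1a4* 45.7 and 45.6 FPKM. Neither passed. The neuronal marker *Stmn2* averaged 54.5 FPKM after mock and 63.8 FPKM after quinpirole and passed as higher (log2 difference 0.22, adjusted p = 0.0322 from limma). Microglia also use NF-κB, and the part of these other cells in the values below was not tested. No counts were recorded, but the steps of the lowest FPKM values gave an estimated depth of 22400000 to 27400000 fragments per library.

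Some promoter windows are shown because they carry the sequence that NF-κB dimers recognize and because they belong to members whose values are compared below. Of the 10 members, 6 had at least 1 window in the RefSeq table (GRCm38.p6, 250 bases before to 50 bases after an annotated start site). The 10-letter κB consensus was searched on both strands, with overlapping matches allowed. It was present in some window of 4 of the 6 members, *Nfkb2*, *Nfkbia*, *Tnfaip3* and *Rel*, compared with 1388 of all 27025 genes (5.14%) and 1480 of all 32851 windows (4.51%). The windows are printed 5′ to 3′ on the strand of the gene, with bases inside a match in capitals.
Nfkb2, first window (chr19:46304487-46304786, plus strand): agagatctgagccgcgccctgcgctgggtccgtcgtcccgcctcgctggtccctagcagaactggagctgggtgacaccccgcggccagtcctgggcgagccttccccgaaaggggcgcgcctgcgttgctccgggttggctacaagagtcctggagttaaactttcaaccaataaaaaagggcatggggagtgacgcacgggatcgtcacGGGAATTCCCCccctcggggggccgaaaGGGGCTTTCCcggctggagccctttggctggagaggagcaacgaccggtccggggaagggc
Nfkbia (chr12:55492598-55492897, minus strand): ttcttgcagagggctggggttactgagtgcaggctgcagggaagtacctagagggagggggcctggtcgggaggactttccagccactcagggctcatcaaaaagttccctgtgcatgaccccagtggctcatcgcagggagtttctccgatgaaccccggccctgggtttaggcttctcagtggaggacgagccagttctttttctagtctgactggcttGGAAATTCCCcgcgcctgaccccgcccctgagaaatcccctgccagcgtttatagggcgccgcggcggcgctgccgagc
Tnfaip3, first window (chr10:19015361-19015660, minus strand): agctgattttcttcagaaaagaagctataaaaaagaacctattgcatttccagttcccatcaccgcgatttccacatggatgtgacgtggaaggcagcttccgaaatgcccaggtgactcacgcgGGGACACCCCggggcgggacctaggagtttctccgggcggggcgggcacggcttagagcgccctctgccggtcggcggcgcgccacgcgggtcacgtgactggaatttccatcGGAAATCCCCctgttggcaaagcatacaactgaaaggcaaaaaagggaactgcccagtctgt
Rel (chr11:23770920-23771219, minus strand): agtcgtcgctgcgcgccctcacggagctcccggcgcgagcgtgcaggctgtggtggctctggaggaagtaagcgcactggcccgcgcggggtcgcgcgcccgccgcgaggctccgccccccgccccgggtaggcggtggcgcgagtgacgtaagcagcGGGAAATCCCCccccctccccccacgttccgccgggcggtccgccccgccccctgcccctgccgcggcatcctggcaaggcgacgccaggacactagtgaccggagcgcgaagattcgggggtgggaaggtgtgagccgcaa
In the first *Nfkb2* window the capitals cover 3 match positions, of which those read as GGGAATTCCC and, on the other strand, GGGGAATTCC overlap, while GGGGCTTTCC lies apart. The second *Nfkb2* window (chr19:46305445-46305744) held GGGACTTTCC on the gene strand and GGGACATTCC on the other strand. The third window overlaps the second, and its only match is that same GGGACTTTCC. The *Nfkbia* match was GGGAATTTCC on the other strand, and the *Rel* window read GGGAAATCCC on the gene strand and GGGGATTTCC on the other strand, again overlapping. *Tnfaip3* had GGGACACCCC and, near the start site, GGGGATTTCC on the other strand. No match lay in the windows of *Rela* or *Nfkbib* or in the second window of *Tnfaip3*. A match is a description of letters, and binding was not measured.

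**Figure D1:**
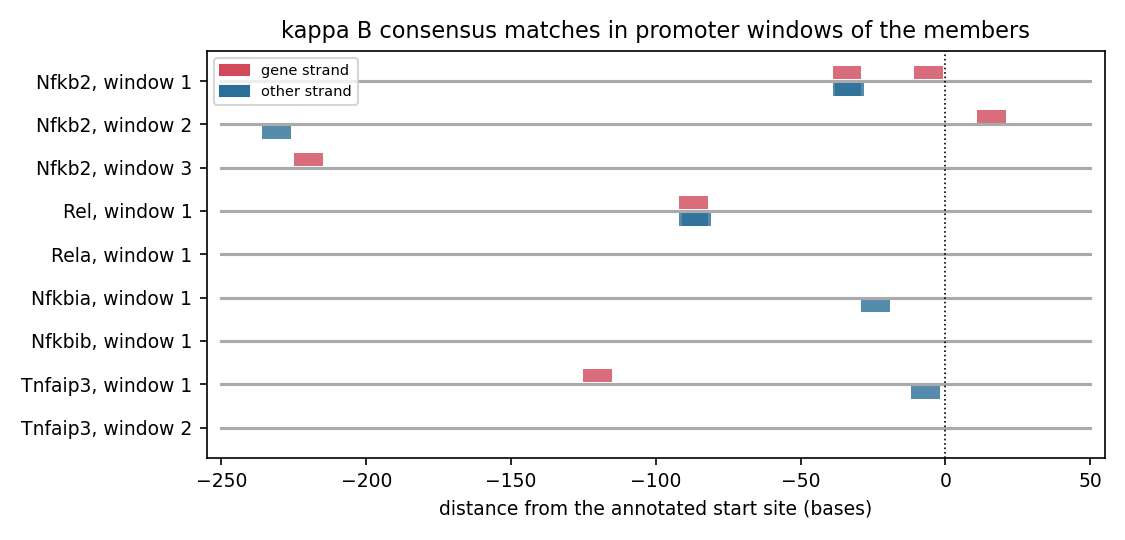
Position of each match to the κB consensus (boxes of 10 bases) in the promoter windows of the 6 members that had one, by distance in bases from the annotated start site (dotted line). Boxes above a line are on the gene strand and boxes below it on the other strand. The matches nearest to the start site are those of *Tnfaip3*, *Nfkb2* and *Nfkbia*, and 3 of the 9 windows hold none. The box in the third *Nfkb2* window and the gene-strand box in the second are the same site.

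Levels of the 10 members spanned a wide range. Because FPKM is divided by length, levels can be set side by side between genes as far as that length is right. The length used by the authors is not given. Summed exons and longest annotated transcript differ most for *Ikbkb* (19078 and 4845 bases) and *Nfkb1* (12061 and 4149 bases). The places of both genes in the order below are therefore less certain. *Rela* was highest with a mean of 40.2 FPKM over the 6 libraries, above 88.7% of all genes measured. It was followed by *Nfkbia* (34.4), *Nfkbib* (22.8), *Nfkb1* (22.6), *Ikbkb* (17.5), *Nfkb2* (14.6), *Relb* (11.0), *Nfkbiz* (4.84), *Tnfaip3* (2.74) and *Rel* (0.740), all mean FPKM. Between neighbours in this order, the ranges over libraries overlapped for *Nfkbib* and *Nfkb1* and for *Ikbkb* and *Nfkb2*, and were apart for the other 7 pairs. *Rel*, which encodes c-Rel, the subunit best known from lymphocytes and other haematopoietic cells, was thus the only subunit below 1 FPKM in these libraries.

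Quinpirole was then compared with mock to ask whether DRD2 stimulation was accompanied by a change in these mRNAs. Of the 10 members, 9 passed the filter of a mean of at least 1 FPKM, and 1 of the 9 passed the threshold (limma on log2(FPKM + 1), Benjamini-Hochberg adjusted p under 0.05 over 12255 genes): *Nfkb2*, which was lower. In the same test 10.9% of all genes passed in either direction and 5.18% passed as lower, so the share among the members was close to the background. That background is itself unstable: the 1339 genes became 6, 3 and 1182 without mock 1, 2 and 3, and 11, 25 and 214 without quinpirole 1, 2 and 3, and 2 with the replicate number as a block. At an unadjusted p under 0.05 there were 2 members, *Nfkb2* and *Ikbkb*, compared with 31.3% of all genes. No member passed as higher, against 5.74% of all genes, and the *Nfkb2* call was lost when any single library was left out. Log2 differences below are quinpirole minus mock on the scale of FPKM + 1. In bulk samples, fewer cells of a type and less RNA per cell cannot be told apart.

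**Figure D2:**
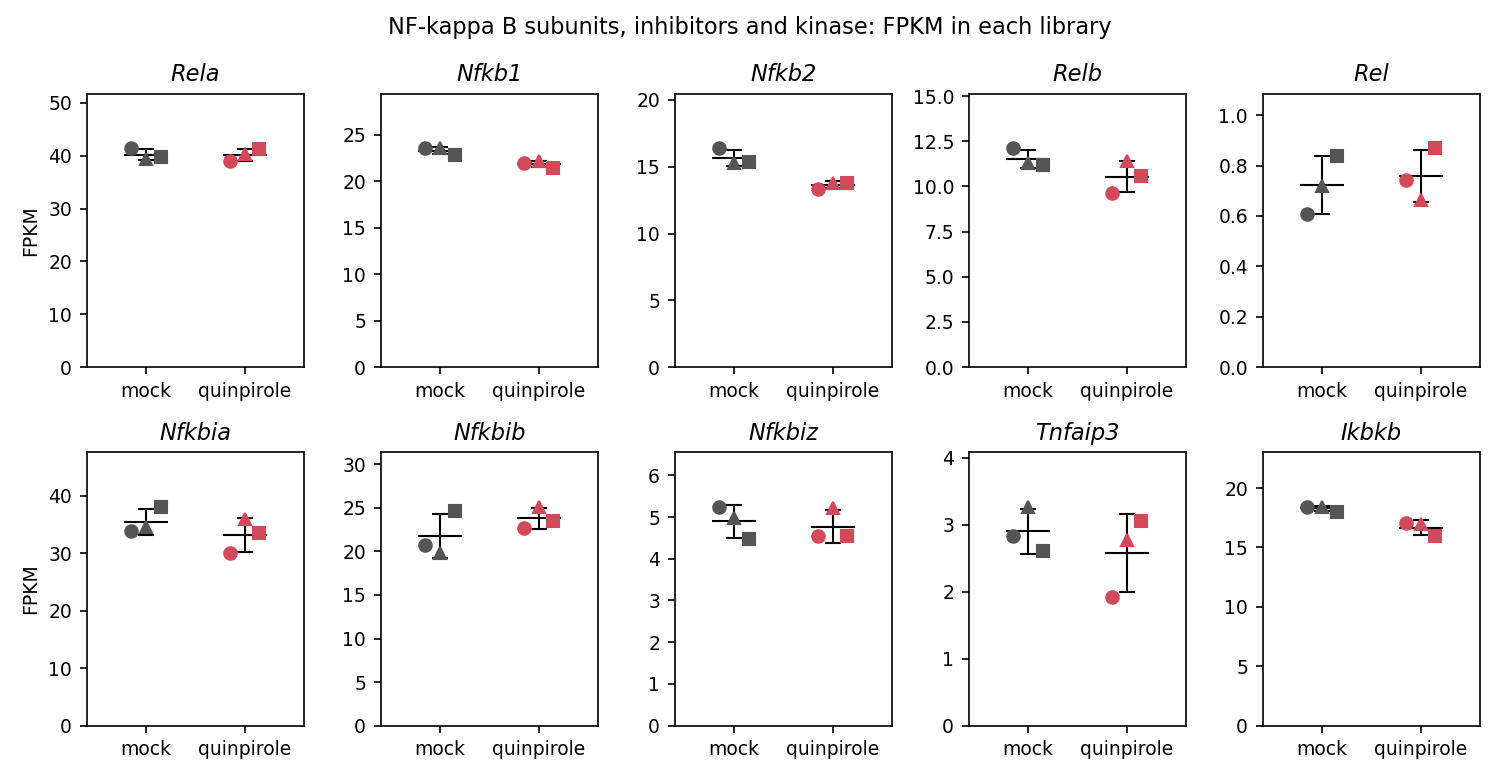
FPKM of each member (vertical axes, each starting at 0) in the 3 mock libraries (grey) and 3 quinpirole libraries (red). Circles, triangles and squares are replicates 1, 2 and 3, bars are the mean and SD. The groups are apart for *Nfkb1*, *Nfkb2* and *Ikbkb*, with quinpirole lower, and overlap for the other 7 members.

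Of the subunits of the classical branch, *Rela* (ENSMUSG00000024927, chromosome 19, 5637483 to 5648130, plus strand, GRCm38), which encodes the transactivating subunit RelA, had 41.4, 39.5 and 39.8 FPKM in mock 1 to 3 and 38.9, 40.3 and 41.2 FPKM in quinpirole 1 to 3. The groups covered the same range. The log2 difference was -0.0022 (SE 0.04, 95% interval -0.10 to 0.09, adjusted p = 0.977 from limma), which leaves room for a change of about 0.10 on the log2 scale in either direction. *Nfkb1* (ENSMUSG00000028163, chromosome 3, 135584655 to 135691547, minus strand), which encodes the precursor of the DNA-binding partner of RelA, had 23.6, 23.6 and 22.8 FPKM in the mock libraries and 22.0, 22.2 and 21.5 FPKM after quinpirole. Every quinpirole library lay below every mock library, by a small margin, and the log2 difference of -0.09 (SE 0.04, 95% interval -0.18 to 0.0023, adjusted p = 0.167 from limma) did not pass. *Rel* (ENSMUSG00000020275, chromosome 11, 23736847 to 23770970, minus strand) was under the filter and was examined by itself. It had 0.608, 0.719 and 0.839 FPKM in the mock libraries and 0.741, 0.663 and 0.869 FPKM after quinpirole, and the ranges overlapped. A two-sided exact permutation test on log2(FPKM + 1) gave p = 0.7 for *Rel*, and the smallest p that 3 libraries against 3 allow is 0.1. At an estimated 121 to 159 fragments per library, counting error alone was up to 9.1% of a *Rel* value, compared with 2.9% for *Nfkb2*.

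Of the subunits of the alternative branch, *Nfkb2* (ENSMUSG00000025225, chromosome 19, 46304320 to 46312385, plus strand) had 16.4, 15.3 and 15.3 FPKM in mock 1 to 3 and 13.4, 13.8 and 13.8 FPKM in quinpirole 1 to 3. All quinpirole values were lower than all mock values, and the gap between the groups was wider than the spread within either. The mean fell from 15.6 ± 0.634 to 13.6 ± 0.253 FPKM (SD, n = 3 each), so that it fell by 12.8%. Its log2 difference was -0.18 (SE 0.05, 95% interval -0.29 to -0.07, adjusted p = 0.0492 from limma), just inside the threshold. With 1 library left out in turn, the log2 difference lay between -0.20 and -0.15 and the adjusted p between 0.0643 and 0.136, so the direction was kept and the call was lost in each of the 6 fits. Over all 17 alternatives the adjusted p of *Nfkb2* ranged from 0.0402 to 0.145, and 4 of them passed. The exons of *Nfkb2* share 299 bases (6.52% of its exonic length) with *Psd* on the opposite strand and 531 bases (11.6%) with a long noncoding RNA, and the library kit is not stated to keep strand. *Psd* itself had 2.87, 3.02 and 2.53 FPKM in the mock libraries and 2.20, 2.07 and 2.30 FPKM after quinpirole, a log2 difference of -0.25 (adjusted p = 0.0689 from limma). Its part in the *Nfkb2* value was not tested. *Relb* (ENSMUSG00000002983, chromosome 7, 19606217 to 19629438, minus strand), which encodes the partner of the shortened *Nfkb2* product, had 12.1, 11.3 and 11.2 FPKM in the mock libraries and 9.66, 11.4 and 10.6 FPKM after quinpirole. The groups overlapped through quinpirole 2. The log2 difference of *Relb* was -0.12 (SE 0.07, 95% interval -0.28 to 0.04, adjusted p = 0.263 from limma).

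The make-up of the subunit pool was also described for each library. Of the summed FPKM of the 5 subunits, *Rela* made up 44.0%, 43.7% and 44.2% in mock 1 to 3 and 46.0%, 45.6% and 46.9% in quinpirole 1 to 3. *Nfkb2* made up 17.4%, 16.9% and 17.0% in the mock libraries and 15.8%, 15.6% and 15.7% after quinpirole. The shares of both genes were apart between the groups, in opposite directions, and shares of a whole depend on each other. *Nfkb1* held between 24.4% and 26.1% and *Rel* between 0.646% and 0.988% over all libraries, with overlapping groups. The size of each share depends on the length by which FPKM was divided, which is least certain for *Nfkb1* among the subunits (12061 or 4149 bases). The sum of *Nfkb2* and *Relb* relative to that of *Nfkb1* and *Rela* was 0.438, 0.421 and 0.423 in the mock libraries and 0.378, 0.403 and 0.389 after quinpirole. These ratios are given without a test because the genes were chosen together.

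**Figure D3:**
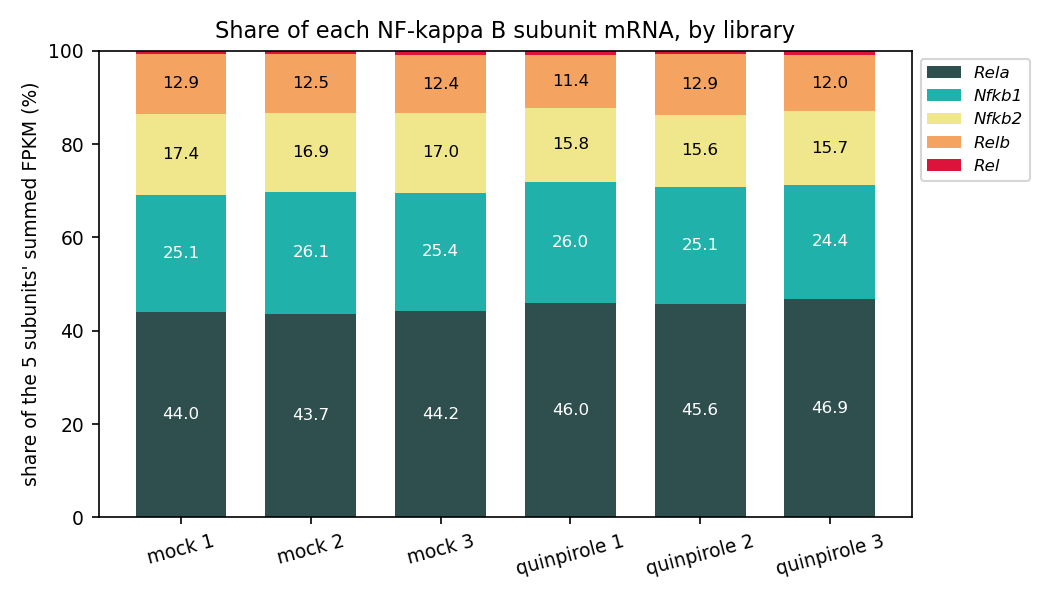
Share of the summed FPKM of the 5 NF-κB subunit genes held by each (stacked bars, percent), by library. *Rela* holds the largest share in every library, from 43.7% to 46.9%, and the share of *Nfkb2* is between 16.9% and 17.4% in the mock libraries and between 15.6% and 15.8% in the quinpirole libraries. The order of the shares rests on the length used for FPKM, which is not given.

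None of the inhibitor genes passed the threshold. *Nfkbia* (ENSMUSG00000021025, chromosome 12, 55489410 to 55492647, minus strand) encodes IκBα, the inhibitor that is resynthesized first after NF-κB activation and a common readout of it. It had 33.8, 34.6 and 38.1 FPKM in mock 1 to 3 and 30.1, 36.0 and 33.5 FPKM in quinpirole 1 to 3. The lowest value was that of quinpirole 1 and the highest that of mock 3, and the other 4 lay between 33.5 and 36.0 FPKM. With a log2 difference of -0.10 (SE 0.07, 95% interval -0.27 to 0.08, adjusted p = 0.413 from limma), the difference was within the spread between libraries. *Nfkbib* (ENSMUSG00000030595, chromosome 7, 28758251 to 28767512, minus strand), which encodes the related inhibitor IκBβ, had 20.8, 19.9 and 24.7 FPKM in the mock libraries and 22.7, 25.1 and 23.5 FPKM after quinpirole. It was the only tested member with a higher mean after quinpirole, but mock 3 lay among the quinpirole values. Its log2 difference was 0.13 (SE 0.08, 95% interval -0.06 to 0.32, adjusted p = 0.327 from limma). With a library left out it lay between 0.07 (without mock 2) and 0.22 (without mock 3, adjusted p = 0.0609 from limma). The exons of *Nfkbib* share 314 bases (14.5%) with *Ccer2* and 42 bases (1.94%) with *Sirt2* on the opposite strand, so its level is less certain.

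*Nfkbiz* (ENSMUSG00000035356, chromosome 16, 55811375 to 55838899, minus strand) encodes IκBζ, a nuclear and inducible member of the IκB family that acts as a cofactor at some target genes. It had 5.25, 4.98 and 4.47 FPKM in the mock libraries and 4.53, 5.23 and 4.55 FPKM after quinpirole, so the groups covered nearly the same range (log2 difference -0.03, 95% interval -0.21 to 0.15, adjusted p = 0.809 from limma). *Tnfaip3* (ENSMUSG00000019850, chromosome 10, 19000910 to 19015657, minus strand) encodes a ubiquitin-editing enzyme that switches off signalling upstream of the kinase complex. It had 2.83, 3.27 and 2.61 FPKM in the mock libraries and 1.92, 2.76 and 3.05 FPKM after quinpirole. Quinpirole 1 was the lowest and the other quinpirole libraries lay inside the mock range. The log2 difference of *Tnfaip3* was -0.14 (SE 0.13, 95% interval -0.44 to 0.17, adjusted p = 0.511 from limma), and without quinpirole 1 it was 0.0034. *Tnfaip3* varied most among the members, with a coefficient of variation of 16.9% over the 6 libraries, and *Rela* least with 2.46%.

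*Ikbkb* (ENSMUSG00000031537, chromosome 8, 22659212 to 22706589, minus strand), which encodes the catalytic kinase subunit that phosphorylates IκB, had 18.4, 18.4 and 18.0 FPKM in mock 1 to 3 and 17.1, 17.0 and 15.9 FPKM in quinpirole 1 to 3. The groups did not overlap, and quinpirole was lower. The log2 difference was -0.13 (SE 0.04, 95% interval -0.23 to -0.02), with an unadjusted p of 0.0220 and an adjusted p = 0.0996 from limma, so it did not pass. The groups were apart in this direction for 3 of the 9 tested members, *Nfkb1*, *Nfkb2* and *Ikbkb*, and for 16.9% of all tested genes, and in either direction for 36.9% of them. *Chuk*, the gene of the other catalytic subunit, had means of 9.66 FPKM after mock and 9.88 FPKM after quinpirole, a log2 difference of 0.03 (adjusted p = 0.703 from limma). The ratio of *Ikbkb* to *Chuk* was 1.88, 1.87 and 1.93 in the mock libraries and 1.76, 1.71 and 1.58 after quinpirole. This ratio is of values as deposited and was not tested. With the correction for summed exonic length described next, the log2 difference of *Ikbkb* was 0.10.

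The direction of *Nfkb1* and *Ikbkb* depended on how transcript length was treated. Tested genes were divided into 5 equal classes by exonic length. Both genes lie in the longest class, with 12061 and 19078 bases, where the median log2 difference was -0.11 and 16.2% of genes passed as lower. After each library was corrected for its relation with summed exonic length, the log2 difference was 0.04 for *Nfkb1* (adjusted p = 0.571 from limma) and 0.10 for *Ikbkb* (adjusted p = 0.315 from limma). The longest annotated transcript of these genes has only 4149 and 4845 bases. With that length in the correction, a choice made after the data had been seen, the log2 differences were -0.08 (adjusted p = 0.213 from limma) and -0.08 (adjusted p = 0.317 from limma). *Nfkb2*, with 4584 exonic bases, lies in the middle class, where the median was 0.02, and both corrections left it at -0.20 and -0.19 (adjusted p = 0.0577 and 0.0690 from limma). *Nfkbia* is in the shortest class with 1610 bases, where the median was 0.12. Its log2 difference became -0.20 with the first correction (adjusted p = 0.0828 from limma) and -0.19 with the second (adjusted p = 0.114 from limma). *Nfkbib*, in the same class with 2169 bases, went from 0.13 to 0.04 and 0.05 (adjusted p = 0.763 and 0.683 from limma).

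**Figure D4:**
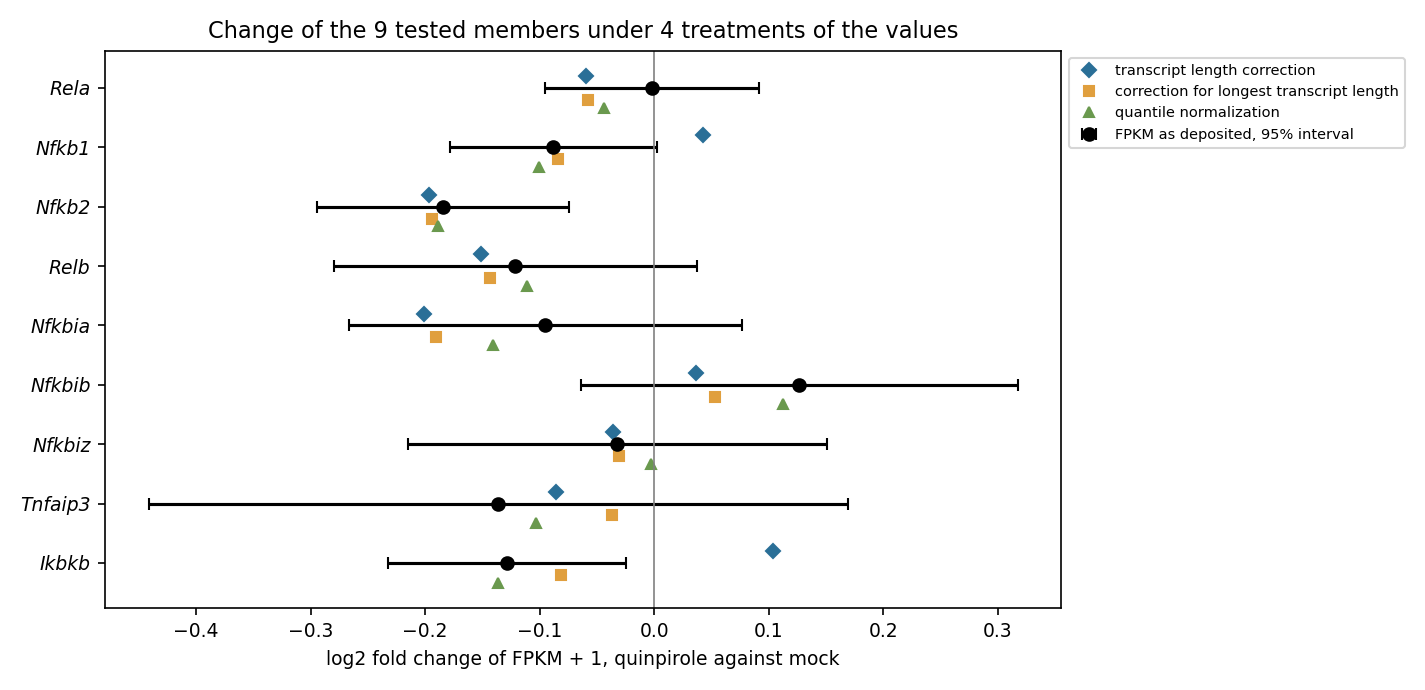
Log2 fold change of FPKM + 1 between quinpirole and mock for the 9 tested members, from values as deposited (black, bars are 95% intervals from limma) and after the 2 length corrections and quantile normalization. *Nfkb1* and *Ikbkb* change side with the correction for summed exonic length, and *Nfkb2* stays between -0.20 and -0.18 in all 4.

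Within the group, 8 of the 9 tested members had a negative log2 difference, with a median of -0.10, compared with 5662 negative among 12255 genes and a median of 0.02. These signs are those of the values as deposited. With the correction for summed exonic length *Nfkb1* and *Ikbkb* turned positive (0.04 and 0.10). The difference of *Rela*, counted among the negative ones, was only -0.0022. Likeness of pattern was measured by the root mean square difference between the deviations of log2(FPKM + 1) from each gene's mean over the 6 libraries. The deviations were not scaled, so genes that vary little come out as alike. Values were used as deposited, without a length correction. Of all pairs of tested members, *Nfkb1* and *Ikbkb* were the most alike (0.03), and *Nfkbib* and *Tnfaip3* the least (0.24). The 3 genes most like *Nfkbia* among all tested were *Gbp2* (0.02), *Ccdc9* (0.02) and *Zfp40* (0.03). *Gbp2* had 7.72, 8.14 and 8.94 FPKM in the mock libraries and 6.78, 8.24 and 7.60 FPKM after quinpirole, with quinpirole 1 lowest and mock 3 highest, as for *Nfkbia*. *Gbp2* was picked from 12255 genes for its likeness over these same 6 libraries. The shared extremes follow from that choice and are no separate result.

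Other genes of the pathway were counted in 4 lists of 80 genes in all, of which 68 passed the filter. Of the 68, 2 passed the threshold as higher and 1 as lower after quinpirole, or 4.41%, against the background of 10.9%. At an unadjusted p under 0.05 from limma there were 13 of the 68, against 31.3% of all tested genes. The median log2 difference over the 68 genes was -0.02. Among ligands and receptors, 11 of 16 were tested and 0 passed (limma, 0 also at an unadjusted p under 0.05). *Tnfrsf1a*, the main receptor of tumour necrosis factor, was the highest of the list with 88.9 FPKM after mock and 88.3 FPKM after quinpirole (log2 difference -0.01, adjusted p = 0.869 from limma). The lymphotoxin receptor gene *Ltbr*, which feeds the alternative branch, had 40.3 and 42.7 FPKM (log2 difference 0.08, adjusted p = 0.257 from limma). The ligand genes *Il1a*, *Il1b*, *Ltb* and *Tnfsf11* were under the filter, and *Tnf* itself averaged 1.99 and 2.06 FPKM.

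Among 28 kinases and adaptors between receptor and IκB, 1 was higher and 0 were lower (3 at an unadjusted p under 0.05). Of all tested genes, 10.9% passed and 31.3% had an unadjusted p under 0.05 from limma. *Ube2n*, the ubiquitin-conjugating enzyme that builds the chains on which the kinases assemble, had 25.5, 22.4 and 25.3 FPKM in the mock libraries and 28.4, 29.7 and 30.9 FPKM after quinpirole. All quinpirole values were higher, with a log2 difference of 0.27 (SE 0.06, adjusted p = 0.0377 from limma). It passed in 5 of 17 alternatives. The call was lost with either length correction, quantile normalization, the replicate block, no filter on low values and no mean-variance trend. It was also lost in 5 of the 6 fits without a single library, all but that without mock 3. *Rbck1*, of the linear ubiquitin ligase, and *Cul1*, the scaffold of the ligase that marks phosphorylated IκB, were the most abundant. *Rbck1* had 33.7 and 32.4 FPKM (log2 difference -0.06, adjusted p = 0.340 from limma), and *Cul1* had 28.7 and 31.7 FPKM (log2 difference 0.14, adjusted p = 0.133 from limma). Of 11 other inhibitors, 10 were tested and 0 passed (limma, 3 at an unadjusted p under 0.05). The most abundant were the adaptor gene *Tax1bp1* (42.1 and 43.4 FPKM, log2 difference 0.04) and the deubiquitinase gene *Otulin* (18.2 and 20.0 FPKM, log2 difference 0.13), with adjusted p = 0.531 and 0.156 from limma.

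Among 25 genes known as NF-κB targets, 19 were tested, of which 1 was lower, 1 was higher and 17 did not pass (7 at an unadjusted p under 0.05). Both counts were near the background, where 10.9% of all tested genes passed and 31.3% had an unadjusted p under 0.05 from limma. The lower gene was the complement gene *C3*, with 84.2, 91.2 and 86.5 FPKM in the mock libraries and 51.8, 51.7 and 52.6 FPKM after quinpirole, a log2 difference of -0.74 (SE 0.04, adjusted p = 0.00209 from limma), and it passed in 16 of its 17 alternatives. The higher gene was *Ier3*, an immediate early gene linked to cell survival, with 14.7, 12.6 and 15.2 FPKM in the mock libraries and 17.8, 19.4 and 19.0 FPKM after quinpirole. For *Ier3* the log2 difference was 0.38 (SE 0.07, adjusted p = 0.0274 from limma). It passed in 8 of 17 alternatives and was lost with either length correction, with the replicate block and in 5 of the 6 fits without a single library, again all but that without mock 3. *C3* and *Ier3* thus moved in opposite directions. The most abundant target genes, *Bcl2l1*, an inhibitor of apoptosis, and *Csf1*, a growth factor for microglia, had 93.3 and 98.0 FPKM (log2 difference 0.07, adjusted p = 0.264 from limma) and 89.6 and 82.4 FPKM (log2 difference -0.12, adjusted p = 0.0731 from limma). Over the 19 tested targets the median log2 difference was -0.06, with 11 negative. Immediate early genes that respond to tissue dissociation were counted beside these because they share inducers with NF-κB targets, and of the 10 tested 0 passed (limma, 1 at an unadjusted p under 0.05).

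**Figure D5:**
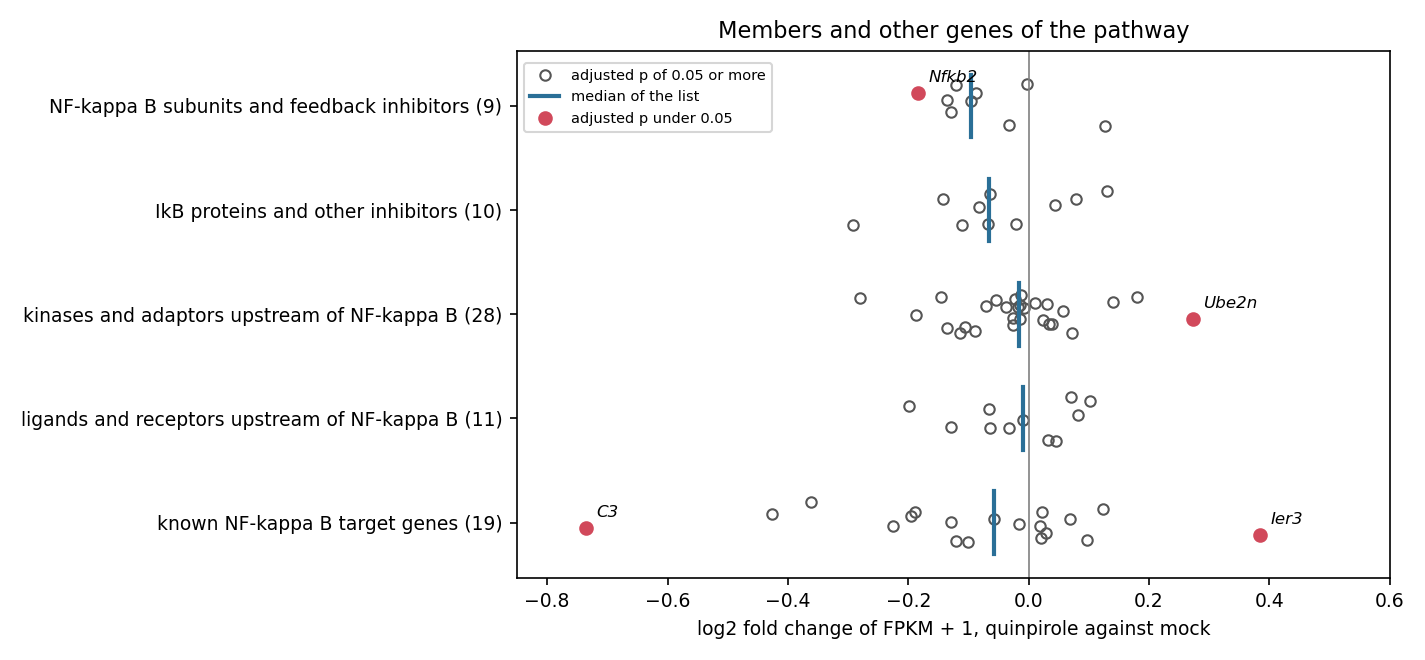
Log2 fold change of FPKM + 1 between quinpirole and mock for each tested gene of the group and of 4 lists of other pathway genes (number tested in brackets). Filled red points passed an adjusted p of 0.05 and blue bars are medians. *Nfkb2*, *Ube2n*, *Ier3* and *C3* are the genes past the threshold, and the medians lie between -0.10 and -0.01.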

How the data were processed

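Messenger RNA of ACSA-2 positive brain astrocytes was sequenced in 3 mock and 3 quinpirole libraries, grouped by their labels. The study's supplementary data head the mock libraries saline. The authors removed adaptors and low-quality reads, mapped paired-end reads with TopHat2 to GRCm38, kept reads with at most 1 mismatch and deposited FPKM values, 1 per gene and library. The TopHat2 version, the annotation and the program for FPKM are not given in the sources used here. FPKM already contains a division by transcript length and depth, so counts could not be tested.

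Identifiers were matched to symbols for 17090 of 17193 genes. Coordinates and lengths came from GENCODE M21 on GRCm38, promoters from RefSeq. Values were tested as log2(FPKM + 1) for the 12255 genes that averaged at least 1 FPKM, with limma 3.58.1 in R 4.3.3 (two-sided moderated test with a mean-variance trend, p-values adjusted by Benjamini-Hochberg over all genes, threshold 0.05). Fold changes of low genes are understated by the added 1. No replicate pair differed by as little as sampling noise (median chi-square 2.38 to 3.84 times chance within groups, 680 genes). Same-numbered libraries were treated as unpaired because the labels state no pairing. Their deviations correlated at 0.026, -0.066 and -0.103, which with 3 libraries per group cannot decide whether they were paired. Depth was estimated from the steps of low values over 1254 genes with 1 transcript, of which between 54.8% and 60.6% of low values lay within 0.1 of a whole fragment, and fragments per member use the longest transcript. Length corrections subtracted a loess fit (span 0.3) of each library's deviation on log2 length. The fit and the corrections were tested on simulated data.

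All members were named, and of each pathway list the genes past the threshold and the 2 with the highest mean FPKM, besides genes used as checks. *Chuk*, *Psd*, *Tnf*, the genes under the filter, *Slc1a2*, *Foxj1* and *Slco1a4* were named after their values were seen. The result of 1 marker gene is not reported here. The members and lists were chosen with earlier results of these data known. Tables and plots were made in Python 3.11.15.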

Additional observations from a re-analysis of the deposited data

How the results depend on the processing

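The count of members past the threshold, 1, fell to 0 with no filter on low values, quantile normalization, the replicate block, eBayes without trend, the transcript length correction, the replicate block with transcript length correction and the correction for longest transcript length, the last chosen with the data in view. Omitting a library gave 0 to 0. In these fits with limma, 1 to 3 members had an unadjusted p under 0.05, and the 1 call, *Nfkb2*, was kept with a pseudocount of 0.1, a mean FPKM of at least 5, median ratio scaling and robust estimation.

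Over all genes, against 1339 (704 higher, 635 lower), the count was 633 with no filter, 783 with quantile normalization (283 higher, 500 lower), 2 with the replicate block, 714 with eBayes without trend, 509 with the transcript length correction, 0 with the replicate block with transcript length correction (2723 at an unadjusted p under 0.05) and 280 with the correction for longest transcript length. Omitting a library gave 3 to 1182: 6 without mock 1, 3 without mock 2, 1182 without mock 3, 11 without quinpirole 1, 25 without quinpirole 2 and 214 without quinpirole 3. The other pathway genes, 3, came to 1 with the replicate block, 1 with either length correction, 0 with the replicate block with transcript length correction (10 at an unadjusted p under 0.05) and 1 to 4 with single libraries left out. The labels give same-numbered libraries no link besides the number, and mock 3 correlated best with quinpirole 2 (0.155). For these changes the cause was not tested.

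Of 151 values of members under the alternatives, 130 kept direction and side of the threshold, 13 lost significance and 8 changed sign. The sign changed for *Nfkb1* (0.0429) and *Ikbkb* (0.10) with the transcript length correction, with and without the replicate block, and with single libraries left out for *Rela* (-0.0207 to 0.0195), *Nfkbiz* (-0.088 to 0.0102) and *Tnfaip3* (-0.23 to 0.0034). Of 187 values of the other named genes, 159 were kept, 22 lost significance, 1 gained it and 5 changed sign: *Bcl2l1* (-0.0152) with quantile normalization, *Ltbr* (-0.0019) with the transcript length correction, with and without the replicate block, and *Tnfrsf1a* (-0.0286 to 0.0082) with single libraries left out.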

Other observations

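Some target and ligand genes were under the filter and were left out of the main test. *Bcl2a1a*, an apoptosis inhibitor of a family with near-identical copies, had 0.491, 0.307 and 0.440 FPKM in the mock libraries and 0.759, 1.42 and 0.666 FPKM after quinpirole, so the groups were apart, but its reads may be split between copies. Its level is low. Among the tested genes, which all lie above the filter, the groups were apart in this direction for 20.0% and in either direction for 36.9%. The cytokine gene *Il1b* had 0.295, 0.277 and 0.142 FPKM in the mock libraries and 0.0269, 0.145 and 0.0328 FPKM after quinpirole, with overlapping groups. *Il6* and *Nos2* were listed at 0 in 5 of the 6 libraries, with mock 1 as the exception.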
